A study of Vitis vinifera with 3 samples.

Results

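The regions described here are stretches of DNA that lay just before the start of a grapevine gene model and whose CHH methylation the authors listed as differing from that of young berries. A CHH site is a cytosine followed by 2 bases that are not G. Whole-genome bisulfite sequencing was applied to berries of the cultivar Fujiminori, labelled Vitis vinifera, at the first growth stage (40 days after flowering), at véraison (65 days) and at maturity (90 days), with 1 library per stage. All 3 groups share the cultivar and differ by stage, and the sources used here do not state how many berries or bunches went into each DNA sample. A region was included when it stood in the CHH table of véraison against first growth or of maturity against first growth, lay on a numbered chromosome, named no gene model, and had its midpoint within 3 kb of the nearest listed gene model on that model's upstream side. This gave 28854 regions of the 377997 in all 9 tables, 15826 from the véraison table and 13028 from the maturity table. After regions that overlap one another were joined, they formed 13152 and 11051 places, which covered 1.42 Mb and 1.09 Mb. Many places occur in both tables: joined over both, the regions formed 16954 places, which covered 1.88 Mb.

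In plants, CHH methylation has no mirrored site on the opposite strand to guide its renewal after DNA replication. It is kept up by RNA-directed DNA methylation, in which small RNAs lead a DRM-class methyltransferase to the DNA, and by chromomethylases that read histone marks. Demethylases of the DEMETER family remove it. RNA-directed methylation acts mostly on short transposons and on the edges of longer ones, many of which lie close to genes, and in maize narrow belts of CHH methylation flank many genes. Véraison is the point at which ripening begins and the berries turn soft and coloured.

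Upstream CHH regions were almost all more methylated in the later library. At véraison, 15759 of the 15826 upstream regions were higher than at first growth (99.6%, exact 95% interval 99.5 to 99.7%) and 67 were lower, where 99.6% of all CHH regions in that table were higher. At maturity, 12934 of 13028 were higher (99.3%, interval 99.1 to 99.4%) and 94 were lower, where 99.4% of all CHH regions were higher. The direction of the upstream regions was therefore that of the tables they come from. Intervals cover counting error over regions only. With 1 library per stage there was no replicate, no test between stages was run, and all differences describe these libraries. Both comparisons use the same first growth library, so they do not repeat each other independently.

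The levels of the upstream regions lay above those of the other CHH regions, most of all in the later libraries. In the véraison table the upstream regions had a median CHH level of 7% at first growth (quartiles 3 and 15%) and 27% at véraison (17 and 44%). Their median difference was 19 percentage points, with quartiles of 12 and 29. Regions within 3 kb downstream had medians of 6% and 24%, regions farther than 3 kb from a listed model 5% and 20%, and regions overlapping a gene model 5% and 18%. The median differences of those 3 classes were 17, 14 and 13 points. In the maturity table the upstream medians were 8% at first growth and 28% at maturity, again with a median difference of 19 points, against 17, 14 and 13 in the other classes.

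Large differences were more frequent upstream than in the tables as a whole. A gain of at least 20 percentage points was seen in 7789 upstream regions at véraison (49.2%, exact interval 48.4 to 50%), where 33.5% of all CHH regions gained as much. At maturity it was seen in 6441 upstream regions (49.4%, interval 48.6 to 50.3%), where 33.4% of all did. The share was 41.3% downstream, 31.7% far from listed models and 28.1% within gene models at véraison. High later levels were also more frequent upstream. A CHH level of at least 50% was reached by 3077 upstream regions at véraison (19.4%), compared with 14.8% of the downstream regions, 10.1% of the far regions and 9.03% of those in gene models. At first growth 17 of the same upstream regions (0.107%) stood at 50% or more, where 0.07% of all CHH regions in the table did. Nearly all were listed as gains, so low levels at first growth follow in part from how the regions were picked.

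**Figure D1:**
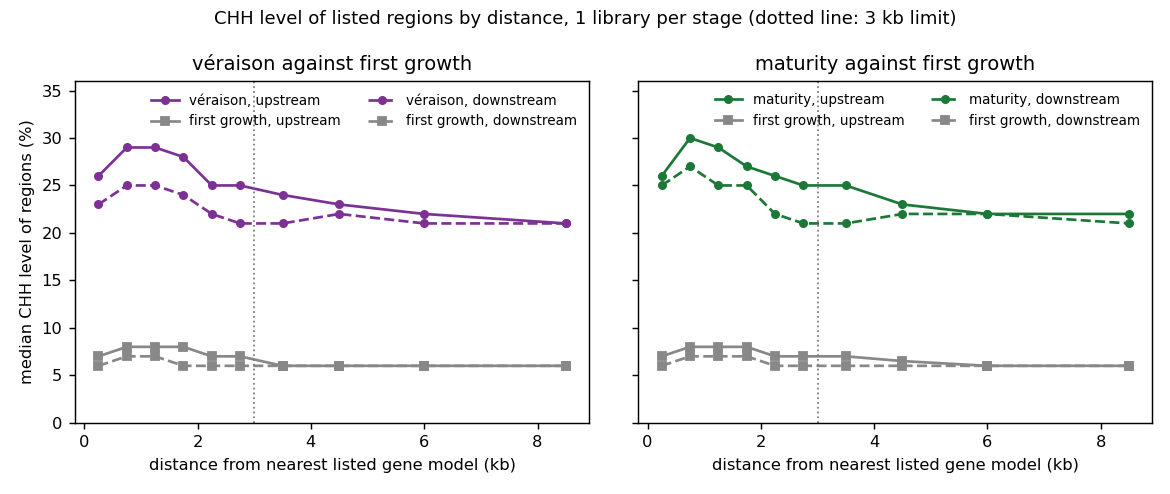
Median CHH level (%) of listed regions against their distance (kb) from the nearest listed gene model, upstream (solid) and downstream (dashed), in the later library (circles) and at first growth (squares), for both comparisons. The upstream medians of the later libraries reach 29% and 30% from 500 to 1000 bp and decline to 21% and 22% between 7 and 10 kb, while the first growth medians stay between 6% and 8%.

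The levels formed a broad maximum close to the gene start, and a lower one close to the gene end. At véraison the median was 26% in the nearest 500 bp, 29% from 500 to 1500 bp, 25% from 2000 to 3000 bp, and 21% between 7 and 10 kb upstream. The median difference ran in the same way, from 19 points in the nearest 500 bp to 21 points from 500 to 1500 bp, 18 points from 2000 to 3000 bp and 15 points between 7 and 10 kb. At maturity the median level was 26% in the nearest 500 bp, 30% from 500 to 1000 bp and 25% from 2500 to 3000 bp. First growth medians in these bins were 7% or 8% upstream and 6% between 7 and 10 kb. Downstream, the véraison medians were 23% in the nearest 500 bp, 25% from 500 to 1500 bp and 21% from 2500 to 3000 bp. At maturity the downstream medians were 25% in the nearest 500 bp, 27% from 500 to 1000 bp and 21% from 2500 to 3000 bp. The limit of 3 kb marked no step. In the véraison table, the 526 regions in the last 100 bp inside it had medians of 7% and 25%, and the 497 in the first 100 bp outside it also had 7% and 25%, with median differences of 19 and 17 points. In the maturity table, 417 regions inside had medians of 8% and 26%, and 409 outside had 7% and 25%.

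Upstream regions were also longer, with a median of 74 bp in the véraison table (range 41 to 1046 bp) against 69 bp downstream, 62 bp far from listed models and 60 bp in gene models. Longer regions had larger differences in every class. The upstream regions nonetheless kept the highest share of large gains at each length. Among regions of 41 to 50 bp, 31.7% gained at least 20 points upstream, 26.3% downstream, 17.9% far from models and 15.5% within models at véraison. Among regions over 150 bp the shares were 79.9%, 74.6%, 73.4% and 69.5%. At maturity the upstream share ran from 34.0% in the shortest class to 79.0% in the longest, and was the highest of the 4 classes in each of the 5 length groups.

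**Figure D2:**
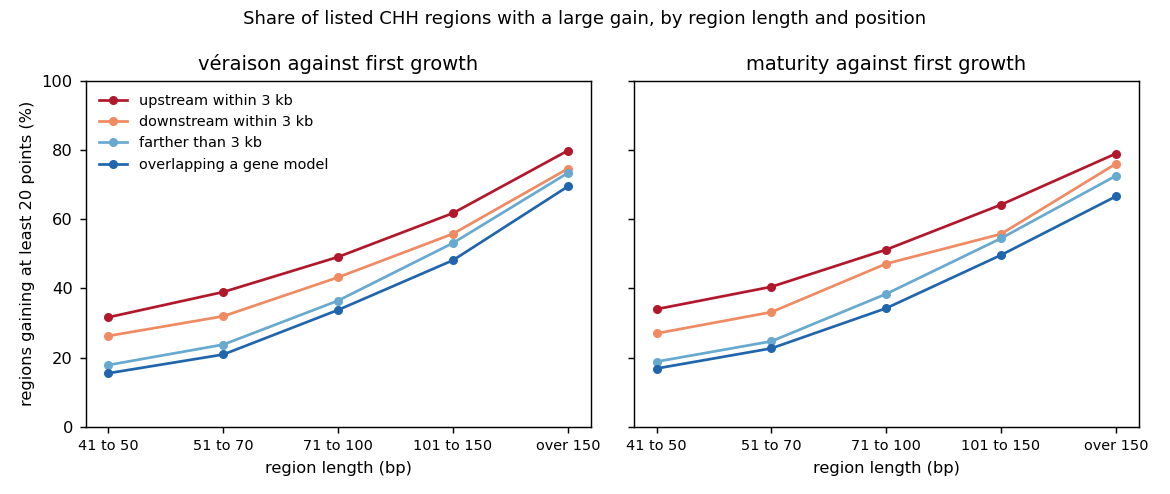
Share of listed CHH regions (%) that gained at least 20 percentage points over first growth, by region length (bp) and by position relative to listed gene models, for both comparisons. Upstream regions have the highest share in every length group, from 31.7% to 79.9% at véraison and from 34.0% to 79.0% at maturity, and the gap to the regions farther than 3 kb is smallest among regions over 150 bp.

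The upstream regions differed from the far ones at first growth too. At véraison, 14.8% of the upstream regions had started at 21 to 40% CHH methylation, compared with 7.35% of the far regions, and 34.5% had started at 1 to 5%, compared with 45.1%. From equal starting levels the later levels lay closer together. Regions that started at 0% had a median of 10% at véraison both upstream and far from models. Those that started at 6 to 10% had medians of 26% and 22%, and those that started at 21 to 40% had 61% in both classes. At maturity the medians for a start of 6 to 10% were 25% and 22%, and for 21 to 40% they were 61% and 60%.

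The larger upstream differences were found on each chromosome. The median difference of upstream regions exceeded that of far regions, of regions in gene models and of downstream regions on 19 of 19 chromosomes in both tables. It ran from 17 points on chromosome 15 to 22 points on chromosome 3 at véraison, and from 16 points on chromosome 10 to 22 points on chromosome 8 at maturity. The far regions had medians of 13 to 16 points over the chromosomes in both tables. The share of upstream regions that were higher in the later library lay between 99.0 and 99.9% at véraison and between 98.6 and 99.8% at maturity.

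**Figure D3:**
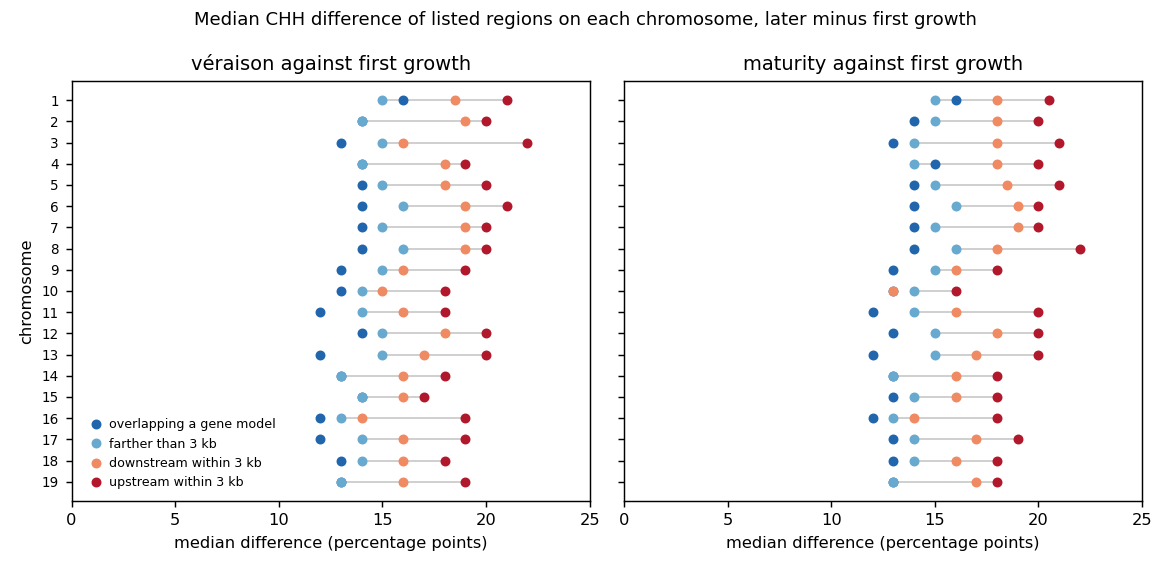
Median CHH difference (percentage points, later minus first growth) of listed regions on each of the 19 chromosomes, for 4 positions relative to listed gene models. Upstream medians lie between 17 and 22 points at véraison and between 16 and 22 at maturity, to the right of the other classes on each chromosome; points with equal values cover each other.

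The density of the regions followed a similar course along the flank. Each base between listed models was assigned to its nearest model, which gave 24.9 Mb of upstream flank and 23.8 Mb of downstream flank within 3 kb. The véraison table held 0.635 CHH regions per kb of upstream flank and 0.438 per kb of downstream flank, a ratio of 1.45. The maturity table held 0.522 and 0.362 per kb, a ratio of 1.44. Joined regions covered 5.68% of the upstream and 3.67% of the downstream flank at véraison, and 4.37% and 2.87% at maturity. The flanks include gene models that no table lists, and these lower the densities by an unknown amount.

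Few regions lay directly before the gene start. In the nearest 500 bp upstream there were 0.327 regions per kb at véraison, compared with 0.677 from 500 to 1000 bp and 0.745 from 1000 to 1500 bp. Farther out, density declined to 0.640 per kb between 3 and 4 kb and to 0.496 between 7 and 10 kb. Downstream it stood at 0.295 per kb in the nearest 500 bp and between 0.432 and 0.496 from there to 10 kb. At maturity the upstream values were 0.260 per kb in the nearest 500 bp, 0.622 at the maximum from 1000 to 1500 bp and 0.410 between 7 and 10 kb. Thus the upstream excess over downstream density was small in the nearest 500 bp and larger from 500 bp outward.

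**Figure D4:**
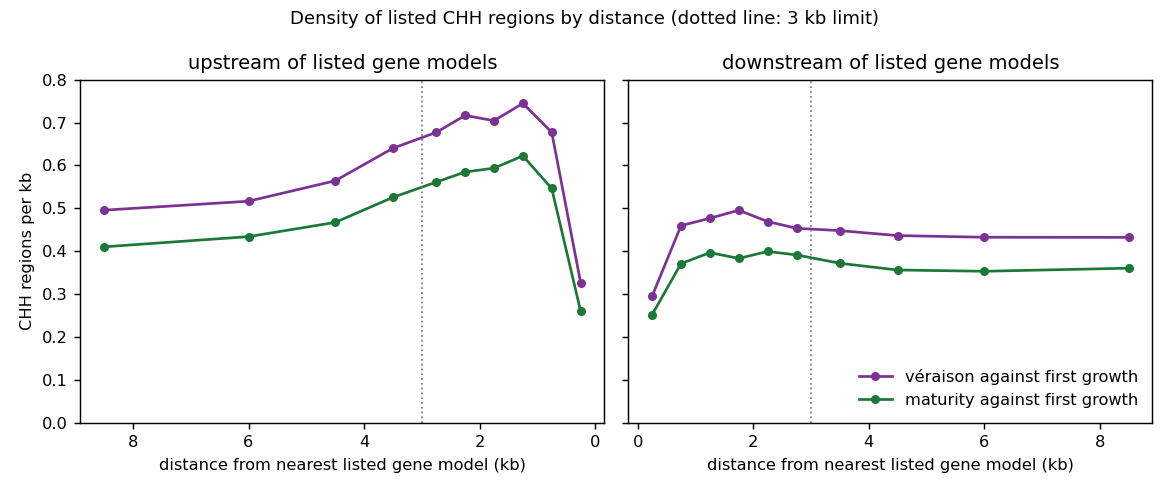
Listed CHH regions per kb of flank against distance (kb) from the nearest listed gene model, upstream (left, gene start at the right edge) and downstream (right), for both comparisons. Density is lowest in the nearest 500 bp (0.327 and 0.260 per kb upstream) and highest from 1000 to 1500 bp upstream (0.745 and 0.622 per kb).

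The upstream excess varied with the length of the gene model. When the 9490 listed models were divided into quartiles by length, the shortest (99 to 2833 bp) had about as many regions per kb upstream as downstream, 0.544 and 0.568 at véraison, a ratio of 0.959. The ratio was 1.38 for models of 2834 to 5996 bp, 1.83 for those of 6001 to 11939 bp and 1.89 for the longest, of 11941 to 131799 bp. At maturity the 4 ratios were 0.975, 1.37, 1.84 and 1.84. The longest models had a higher ratio than the shortest on 19 of 19 chromosomes in both tables, and the shortest had a ratio above 1 on 9 of 19 in both. Both flanks contributed. From the shortest to the longest models, upstream density was 0.544 and 0.714 per kb at véraison, and downstream density was 0.568 and 0.377 per kb.

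Directly before the gene start, models of all lengths were alike in density. In the nearest 500 bp upstream the density lay between 0.311 and 0.344 per kb for the 4 length quartiles at véraison. From 1000 to 1500 bp it was 0.575 per kb for the shortest models and 0.881 per kb for the longest. The upstream regions of the shortest models also had lower levels, with medians of 6% before and 23% at véraison and a median difference of 16 points, whereas those of the longest models had 8%, 28% and 20 points. At maturity the median differences were 16 and 20 points.

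**Figure D5:**
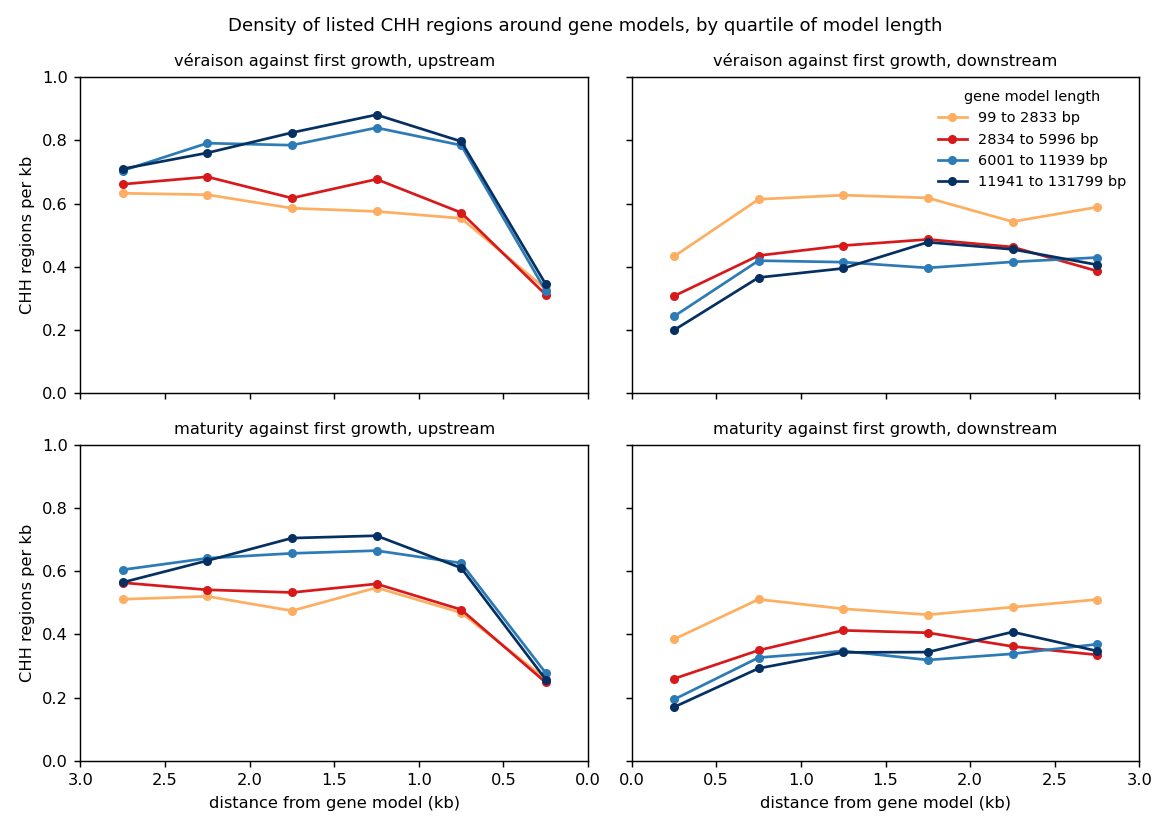
Listed CHH regions per kb of flank against distance (kb) from the gene model, upstream (left) and downstream (right), for the 4 quartiles of gene model length, in both comparisons. Upstream lines coincide in the nearest 500 bp and separate farther out, reaching 0.881 per kb for the longest and 0.575 per kb for the shortest models from 1000 to 1500 bp at véraison, while downstream the shortest models have the highest density.

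A gene model is listed when a region of any table names it as overlapped, so how a model came to be listed could matter. Regions that cross only a model's high-coordinate edge name no model and do not count as overlapping it here. Models that no CHH region overlaps, listed for CG or CHG regions only, had 0.627 upstream CHH regions per kb at véraison, compared with 0.639 per kb for models that a CHH region does overlap. Their downstream densities were 0.380 and 0.468 per kb. The ratio was thus 1.65 for the first group and 1.36 for the second, and 1.68 and 1.34 at maturity. Here each region stayed with the nearest of all listed models. Within both groups the shortest models had the lowest ratio. It was 1.02 and 0.914 at véraison, and the longest models had 2.43 and 1.79. In the first group the highest ratio was that of models of 6001 to 11939 bp, with 2.68 at véraison and 2.70 at maturity.

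The arrangement of neighbouring models was compared as well. Where the upstream sides of 2 listed models face each other across a gap of 3 to 6 kb, the flanks held 595 regions at véraison, or 0.818 per kb, with medians of 9% at first growth and 30% at véraison. In gaps of the same size between the upstream side of one model and the downstream side of another, there were 642 regions, or 0.621 per kb, with medians of 8% and 29%. In gaps over 20 kb the values were 0.639 and 0.615 per kb. At maturity they were 0.598 and 0.494 per kb in gaps of 3 to 6 kb, and 0.541 and 0.490 per kb in gaps over 20 kb. In gaps under 3 kb the véraison densities were 0.511 and 0.410 per kb, from 149 and 221 regions. There the later medians went the other way, with 25% and 31% at véraison and 26% and 33% at maturity. Strand made little difference to the levels, with medians of 7% and 27% at véraison upstream of both plus and minus strand models. Density was 0.653 per kb for plus and 0.617 per kb for minus strand models, and 0.544 and 0.501 per kb at maturity.

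The regions were spread over many genes but gathered at some. Of the 9490 listed models, 5186 (54.6%) had at least 1 upstream region at véraison and 4745 (50%) at maturity, and 5831 had one in either table. Models with an upstream region had a median of 2, with up to 21 at véraison and 18 at maturity. At véraison 1072 models had 5 or more, and these 11.3% of the models held 46.6% of the upstream regions. Of the 7446 models with a full 3 kb of upstream flank, 2911 had no upstream region at véraison and 3277 had none at maturity. Neighbouring regions of one model often touched or followed closely. At véraison 25.1% of the neighbouring pairs overlapped and another 40.7% were at most 200 bp apart, so the regions are not independent of each other.

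Genes with many upstream regions differed in how far these had moved. Among models with 5 or more regions at véraison, the median difference per model ran from 3 to 61 points, with quartiles of 15 and 27. In 1058 of these 1072 models all the upstream regions were higher at véraison, and in 14 at least 1 was lower. As 99.6% of all CHH regions in that table were higher, this count mainly reflects the direction of the table. The regions of one model spanned a median range of 20 points. At maturity the per-model medians ran from 3 to 57 points over 775 models, of which 760 had higher regions only. There 99.4% of all CHH regions were higher.

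The identifiers of the gene models matched none of the 29591 genes of the reference list, so no gene names or functions were assigned. The models with the most upstream regions were VIT_02s0012g00400.t01 on chromosome 2 (6184190 to 6187378, plus strand) and VIT_14s0030g02240.t01 on chromosome 14 (7445042 to 7452757, plus strand), each with 32 over both tables. Upstream of the first, 14 regions covered 46.8% of the 3 kb at véraison, with levels of 6 to 28% at first growth and 21 to 68% at véraison. In the maturity table, 18 regions covered 40.4%, with 4 to 29% at first growth and 15 to 63% at maturity. All 32 were higher in the later library, by 9 to 40 points. Upstream of the second, 21 regions covered 48.8% of the 3 kb at véraison, with 2 to 39% at first growth and 15 to 81% at véraison. In the maturity table it had 11 regions, with 4 to 18% at first growth and 16 to 46% at maturity.

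Next came a model on chromosome 17, from 12198748 to 12206665, with 29 regions. Its medians were 16% at first growth and 44.5% at véraison, and 15% and 39% in the maturity table. A model on chromosome 10, from 13041837 to 13049161, also had 29, with medians of 7% and 22% at véraison and 10% and 24% in the maturity table. The fifth, on chromosome 5 from 8075620 to 8090255, had 27 regions. Its 18 regions at véraison covered 49.5% of the 3 kb, with medians of 7% and 25%, and its 9 regions at maturity covered 31.0%. All 5 models lie on the plus strand and their upstream regions were all higher in the later library. So were 99.6% and 99.4% of all CHH regions in the véraison and maturity tables.

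The longest upstream region was also among those with the smallest p of the authors' test. It lay on chromosome 17, from 4124065 to 4125110, 1804 bp from its gene model, and its level was 18% in young berries and 55% at véraison. Its p was 7.25727e-176 in the authors' deposited table. The smallest p belonged to a region of 685 bp on chromosome 14, from 25865461 to 25866145, with 14% and 35% (p = 1.96191e-233 in the authors' deposited table). A shorter stretch of the same place, from 25865737 to 25866140, had the smallest p in the maturity table, with 14% at first growth and 30% at maturity. The third longest at véraison, on chromosome 15 from 9400252 to 9400908, had 12% and 31%. The longest at maturity, on chromosome 14 from 11889355 to 11890002, had 29% and 60%, and the next, on chromosome 18 from 21333577 to 21334160, had 16% and 51%. One on chromosome 16, from 16864308 to 16864866, had 18% and 36%.

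A small p did not go with a large difference throughout. On chromosome 11, a region of 45 bp from 15197099 to 15197143 stood at 6% in young berries and 12% at véraison, where the authors' deposited table gives p = 7.45472e-141. A neighbour from 15197206 to 15197273 had 6% and 14% at véraison, and 13% at maturity. The depth behind these levels is unknown. On chromosome 13, from 20883034 to 20883487, the levels were 6% and 17% at véraison. Of the other regions with the smallest p at maturity, one on chromosome 17, from 5416264 to 5416572, had 16% at first growth and 67% at maturity. One on chromosome 9, from 14825711 to 14825983, had 9% and 23%, and one on chromosome 8, from 18691255 to 18691512, had 1% and 19%.

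The regions with the largest gains were 43 to 57 bp long at véraison and 46 to 107 bp long at maturity. Levels of 0% at first growth and 100% at véraison were listed on chromosome 16, from 151613 to 151669, and from 18104055 to 18104097. On chromosome 10, from 16284433 to 16284487, they were 0% and 92%. At maturity, a region on chromosome 14, from 25071002 to 25071047, was listed at 0% and 100%. One on chromosome 10, from 14246744 to 14246846, 135 bp before its gene model, had 9% at first growth and 100% at maturity. One on chromosome 19, from 13641250 to 13641356, had 9% and 92%.

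The few upstream regions that were lower in the later library started high and ended near 0%, as did the lower regions of the other classes. At véraison the 67 lower regions had a median of 22% in young berries and of 2% at véraison. The 94 at maturity had medians of 24% and 3%. At véraison, lower regions downstream had medians of 28% and 3%, far ones 20% and 2%, and those in gene models 15% and 1%. The lower upstream regions were short, with median lengths of 53 and 54 bp. They were not concentrated at the gene start: 7 of the 67 and 11 of the 94 lay in the nearest 500 bp, or 10.4% and 11.7%, beside 9.50% and 9.19% of all upstream regions. In 17 and 33 gene models the lower region or regions had no higher upstream region beside them.

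The lower regions with the smallest p lay upstream of 2 models on chromosome 1. Before VIT_01s0026g02140.t01 (11542593 to 11548170, minus strand), the region from 11549542 to 11549697 stood at 85% in young berries and 3% at véraison, where the authors' deposited table gives p = 3.36176e-33. The adjoining region, from 11549703 to 11549791, had 100% and 5%. In the maturity table the region from 11549687 to 11549795 had 100% at first growth and 4% at maturity. Before VIT_01s0010g02230.t01 (19206460 to 19214671, plus strand), the region from 19203854 to 19204010 had 41% at first growth and 1% at véraison, and the region from 19203870 to 19204021 had 46% and 1% at maturity. The next at maturity, on chromosome 2 from 14155282 to 14155342, had 20% and 1%.

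A total of 169 upstream regions had identical limits in the véraison and maturity tables, 1.07% of those at véraison and 1.30% of those at maturity, and could be read at all 3 stages. Because identical limits in both tables favour places that were alike at both later stages, they do not stand for the rest. The median over these places was 6% at first growth, then 24% at véraison, then 23% at maturity. In 167 of them both later levels were higher than at first growth, and in 2 both were lower. The difference between maturity and véraison had a median of 0 points, with quartiles of -2 and 1 and a range from -13 to 22. The first growth level was the same in both tables for all 169.

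Single places showed the 3 values side by side. Besides the chromosome 11 region from 15197206 to 15197273, the 6 with the smallest p included one on chromosome 14, from 18193320 to 18193673, with 16%, 48% and 43% from the youngest to the ripest berries. One on chromosome 10, from 13041332 to 13041560, upstream of one of the models with 29 regions, had 18%, 44% and 49%. On chromosome 9, from 14826509 to 14826663, the levels were 13%, 32% and 32%, and on chromosome 17, from 14229793 to 14229908, they were 8%, 18% and 17%. On chromosome 11, from 15197678 to 15197764, they were 4%, 9% and 8%. The 2 lower ones lay on chromosome 12, from 22318901 to 22318961, with 27%, 5% and 3%, and on chromosome 16, from 18822616 to 18822667, with 14%, 0% and 1%.

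In the same upstream flanks, CG and CHG regions were mostly lower in the later library. Of 447 upstream CG regions listed at véraison, 47 were higher (10.5%, exact interval 7.83 to 13.7%) and 400 were lower, with medians of 40% at first growth and 16% at véraison among the lower ones. Of all CG regions listed, 18.8% were higher, and of those downstream 17.4%. Of 447 upstream CHG regions, 145 were higher (32.4%, interval 28.1 to 37.0%) and 302 lower, where 40.5% of the CHG table and 35.2% of its downstream regions were higher. At maturity, 14.5% of 490 upstream CG regions were higher, where 20.7% of the table and 15.0% downstream were. Of 494 upstream CHG regions 35.4% were higher, where 39.7% of the table and 40.9% downstream were. Unlike CHH regions, CG and CHG regions were not sparse in the nearest 500 bp upstream. At véraison there were 0.0226 CG and 0.0224 CHG regions per kb in the nearest 500 bp, and 0.0187 and 0.0186 per kb from 500 to 1500 bp. At maturity the CG densities were 0.0218 and 0.0233 per kb, and the CHG densities 0.0278 and 0.0214 per kb. An upstream excess was not particular to CHH. The upstream to downstream density ratio for CG was 1.25 at véraison and 1.46 at maturity, beside 1.45 and 1.44 for CHH. For CHG it was 0.975 and 1.13.

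Among models with a full 3 kb of upstream flank, a CHH gain was more frequent where the flank held a lower CG region. For higher CG regions and for CHG regions of either direction, the intervals there included the share of all such models. Those groups were smaller, and at véraison the share for higher CHG regions was as high as for lower CG regions. Over all 9490 models, the intervals for lower CG and for higher CHG regions lay above the share of all, and the others included it. For higher CHG regions the share was 64.9% of 131 models at véraison (56.1 to 73.0%), where 54.5% of all had a CHH gain. At maturity it was 60.1% of 148 (51.8 to 68.1%), where 49.7% of all did. Among the 7446 models with a full 3 kb of upstream flank, 316 had a CG region that was lower at véraison, and 210 of these (66.5%, exact interval 61.0 to 71.6%) also had an upstream CHH region that was higher, where 60.7% of all 7446 had one. For higher CG regions the share was 65.0% of 40 models (interval 48.3 to 79.4%). It was 60.1% of 243 models for lower CHG regions (interval 53.6 to 66.3%) and 67.8% of 118 for higher ones (interval 58.6 to 76.1%). At maturity the shares were 64.3% of 339 models for lower and 56.5% of 62 for higher CG regions. For CHG they were 54.8% of 241 models for lower and 61.4% of 132 for higher regions, where 55.6% of all 7446 had an upstream CHH gain.

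Between véraison and maturity, 2605 CHH regions were listed in the upstream flanks, and 756 of them (29.0%, exact interval 27.3 to 30.8%) were higher at maturity, close to the 31.2% of the whole table and the 31.1% downstream. Among the lower regions the median was 35% at véraison and 10% in mature berries, and among the higher ones it was 9% and 33%. They too were sparse at the gene start, with 0.0572 per kb in the nearest 500 bp and 0.118 per kb from 500 to 1500 bp. This table shares a library with each of the comparisons above.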

How the data were processed

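DNA methylation was measured by bisulfite sequencing in 3 libraries, 1 per stage. The submitters' processing notes list BSMAP 2.73, a bisulfite aligner. The sources used here do not give the genome build, the annotation, or how regions were called and filtered by coverage. Per the file headers, the authors deposited average methylation levels per region as fractions from 0 to 1, rounded to 2 decimals, and these were multiplied to percent here. The deposited p-values, which the file headers call a chi-square statistic but which lie between 0 and 0.01, were read as those of the authors' test between 2 libraries, with no adjustment stated. The tables hold no read counts, so depth and the error of a level are unknown.

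Distances were taken from region midpoints to the edges of the 9490 gene models named in any table on the 19 numbered chromosomes (Python 3.11.15, pandas 2.3.3, SciPy 1.17.1), and the assignment was tested on simulated data. Flank lengths gave each base to its nearest listed model. The gene column names models for 1088 regions that cross a model's low-coordinate edge and for 0 that cross only its high-coordinate edge, where 666 regions name none. As a result, 22 (véraison) and 21 (maturity) upstream regions overlap the start of a minus strand model, and 53 and 38 regions with their midpoint inside a listed model were put in no class. Unlisted gene models may lie closer than the listed ones. Coordinates are those of the tables.

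Named regions are those with the smallest p (5 higher, 3 lower), the 3 longest and the 3 largest gains per table, the 6 shared regions with the smallest p, and the 5 models with the most regions. The regions, lists and model groups were chosen with earlier results of these data known. Intervals printed with shares are exact Clopper-Pearson intervals at 95%. The counting intervals used below for medians and density ratios are of other kinds, from ordered values for the medians. Intervals over regions treat the regions as independent. No sequences are shown, because no genome of the tables' build was used here.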

Additional observations from a re-analysis of the deposited data

How the results depend on the processing

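None of the 70 alternative values reversed a direction, and 41 stayed within the counting interval of the value reported. Because nearly all listed CHH regions were higher, the shares and median differences could hardly have reversed. Keeping only the larger differences raises their median by selection alone. Among regions at or above their table's median absolute difference, the median difference was 25 points in both comparisons, the upstream to downstream density ratio 1.63 at véraison and 1.62 at maturity, and the ratio of the nearest 500 bp to 500 to 1500 bp upstream 0.420 and 0.399 (as reported, 0.460 and 0.446). With p no larger than the table's maximum divided by 10, the share of higher regions at véraison was 99.7% and the median difference 20 points. Among regions no shorter than their table's median, the shares of higher regions were 99.8% and 99.6%, the median difference 22 points in both, the density ratios 1.59 and 1.55, and the near ratio at véraison 0.433. With a flank of 1 kb, the median difference at véraison was 20 points and the density ratios 1.33 and 1.29. With only models that a CHH region overlaps, so that each region went to the nearest of these alone, the density ratios were 1.38 and 1.36 and the near ratios 0.541 and 0.527. With distances from the nearest region edge, the near ratios were 0.539 and 0.524. Chosen after seeing the data, models that no CHH region overlaps, assigned in the same way, gave a median difference of 21 points at véraison, density ratios of 1.70 and 1.72 and near ratios of 0.338 and 0.320. Leaving out regions that cross a model's edge, or joining overlapping regions, moved no value beyond its interval. The causes of these shifts were not tested. No paired analysis was possible because each stage has 1 library. Depth is unknown, so levels of 0% or 100% in short regions may rest on few reads. Unlisted gene models limit every distance.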
